A study of Mus musculus with 16 samples.

Results

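The genes examined here are those of oxidative phosphorylation, the subunits and complex I assembly factors of the respiratory chain and the ATP synthase. They were measured in single light zone (LZ) germinal center (GC) B cells. Members were taken by symbol (the complex I genes of the Nduf families, Sdha to Sdhd, the Uqcr genes and Cyc1, the Cox4 to Cox8 genes, the Atp5 genes, and the mt-Nd, mt-Co, mt-Atp and mt-Cytb genes). Pseudogene symbols were left out, and a mean over all cells of at least 1 CPM (counts scaled to an equal total in every cell) was required. Of 56691 genes in the matrix, 129 had a matching symbol, 15 of these were pseudogenes by symbol and 17 fell below 1 CPM. The 97 members are 88 nuclear-encoded genes and 9 genes encoded in mitochondrial DNA (mt-encoded). The members just above the limit were Cox6b2 at 1.89 CPM, Ndufb4 at 3.39 CPM and mt-Nd3 at 3.60 CPM, and the genes just below it were a further Atp5o entry at 0.848 CPM and Cox6c2 at 0.534 CPM.

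The cells came from 8 hosts, male C57BL/6J or B6.SJL mice primed with OVA and boosted with NP-OVA, 5 treated with acalabrutinib, an inhibitor of Bruton's tyrosine kinase (BTK), and 3 with vehicle. Every host had received a mixture of B1-8hi BTKC481S cells, whose BTK the drug cannot block, and B1-8hi BTKWT cells, and in both the B1-8hi heavy chain gives a receptor of high affinity for NP. The 16 samples of the labels are a genotype in a host. The cell names give host, plate and well but no genotype, so the genotypes are pooled in each host and were not compared. The hosts are coded A7, A8, A10, A11 and A12 for acalabrutinib and V5, V7 and V9 for vehicle.

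Complexes I to IV pass electrons from NADH and succinate to oxygen and pump protons across the inner mitochondrial membrane, and complex V, the ATP synthase, makes ATP from the gradient. Most subunits are encoded in the nucleus and imported, whereas a few membrane subunits of complexes I, III, IV and V are encoded in mitochondrial DNA, transcribed by a dedicated polymerase and translated on mitochondrial ribosomes. Complex II has nuclear-encoded subunits only. Every assembled complex with subunits from both genomes therefore needs transcripts of both, and Myc is known to induce many nuclear genes of mitochondrial biogenesis.

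The matrix holds 637 cells, 381 from acalabrutinib hosts and 256 from vehicle hosts, on 15 plates. Total counts per cell ran from 132412 to 1825420 with a median of 789357, and host sums from 26778559 to 114987280. B cell genes were found in nearly all cells (Cd79a in 99.5%, Pax5 in 95.4%). Ms4a1, a defining B cell gene, had 0 counts in every cell. The 10 T cell genes were found in 0.157% (Cd3e) to 12.1% (Cd28) of cells. The 10 macrophage and monocyte genes were found in 0% (Itgam and Cd14) to 38.1% (Adgre1), with Mertk in 14.8% and Cd68 in 9.11%. By cell cycle scores 248 cells were G1 and 389 cycling (241 S and 148 G2/M). Myc was detected, at 1 count or more, in 177 cells.

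A stretch of mitochondrial DNA has a near copy in the nuclear genome, and several genes in it had few counts or none. mt-Co1 and mt-Nd4, which the copy repeats in part, had 325930 and 131136 counts. In all, 4 protein genes of mitochondrial DNA that the symbol rule matched did not reach 1 CPM. mt-Co2 and mt-Nd4l, a complex IV and a complex I subunit, had 0 counts in all 637 cells. mt-Co3 had 1 count and mt-Atp6 had 18 counts in 4 cells. In the GENCODE M21 transcripts (build GRCm38, whereas the files use GRCm39), each of these genes has a counterpart on the minus strand of chromosome 1 that repeats it almost whole. The longest identical run was 681 of 684 bases for mt-Co2 and Gm28661, 678 of 681 bases for mt-Atp6 and Gm10925, 783 of 784 bases for mt-Co3 and Gm28437, and 294 of 297 bases for mt-Nd4l and Gm10222. mt-Nd3, a member at 3.60 CPM, shared a run of 342 of its 348 bases with Gm28438. The starts of a pair with no counts for the mt gene and of the mt-Nd3 pair are printed as examples of the shared sequence. Capitals mark the base that differs between mt-Nd3 and Gm28438, T3C, with positions counted from 1 at the 5′ end of the transcript and the base of the mt gene first. The stretches lie at chrM:7013-7072 and chr1:24615506-24615565, with no difference over the 60 bases, and at chrM:9459-9518 and chr1:24613060-24613119.
mt-Co2: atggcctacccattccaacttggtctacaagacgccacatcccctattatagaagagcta
Gm28661: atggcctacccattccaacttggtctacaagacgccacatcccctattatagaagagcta
mt-Nd3: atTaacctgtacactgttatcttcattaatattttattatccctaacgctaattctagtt
Gm28438: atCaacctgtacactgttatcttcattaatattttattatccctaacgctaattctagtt

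The counterparts had few counts too. Gm28661 had 37 counts over all cells, Gm10925 had 90, Gm28437 had 13, Gm10222 had 76 and Gm28438 had 37, against 675953 for mt-Nd5. How reads that match several places were treated is not given in the sources used here. To set sharing beside level, each mt gene was divided into overlapping windows of 50 bases, and a window was called shared when its sequence is also in a transcript of another gene. The share was 98.8% to 100% in the 4 genes under 1 CPM, 98.0% in mt-Nd3, 62.2% in mt-Nd4, 51.1% in mt-Co1, 8.19% in mt-Nd2 and 7.61% in mt-Nd5. It was 0% in mt-Nd1, mt-Cytb, mt-Atp8 and mt-Nd6. Only annotated transcripts were compared, so a copy outside them counts as not shared. mt-Atp8 lies between mt-Co2 and mt-Atp6, and whether the sequence between their counterparts on chromosome 1 repeats it was not examined. The part of shared sequence in these levels was not tested.

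**Figure D1:**
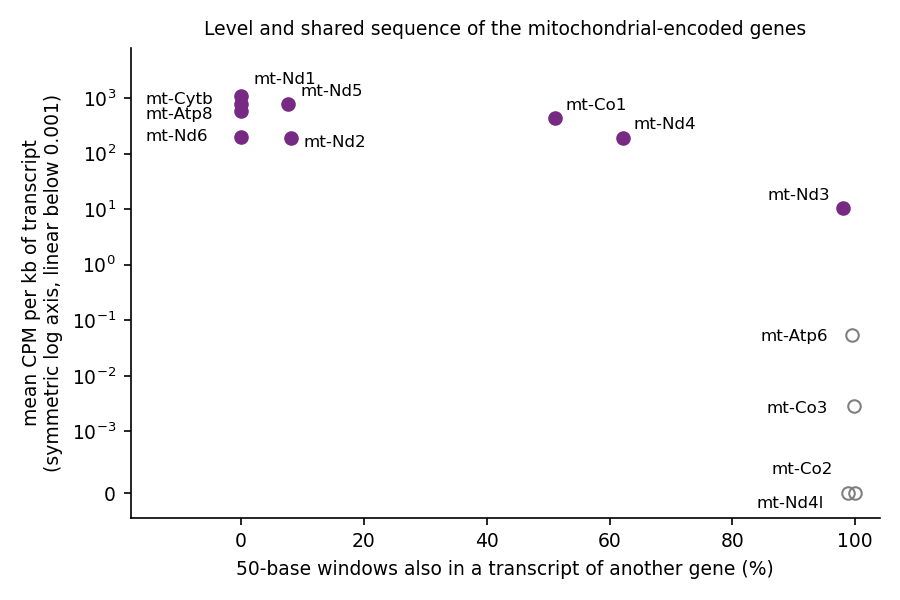
Mean CPM per kb of transcript (symmetric log axis, linear below 0.001) of each mt-encoded protein gene against the share of its 50-base windows that another gene's annotated transcript also holds (%). The 4 genes at 98.8% or more lie at or near 0 and mt-Nd3 at 10.3 CPM per kb, whereas the other mt-encoded members lie between 188 and 1066.

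Per kb of transcript, mt-Nd1 had 1066 CPM, mt-Cytb 783, mt-Nd5 774, mt-Atp8 580, mt-Co1 436, mt-Nd6 197, mt-Nd4 194, mt-Nd2 188 and mt-Nd3 10.3. These are means over all cells, and the order is a description. When CPM was divided by the length of the windows that are not shared, mt-Nd3 came to 599 CPM per kb and mt-Co1 to 922. By that measure the 9 members spanned 215 to 1124. The mt-Nd3 value is imprecise, because 98.0% of its windows are shared and it rests on the few that remain. Those windows cover more bases than their number, so the value is not a level per kb of unshared sequence. mt-Nd6, the one member read from the other strand of mitochondrial DNA, and mt-Nd2 were the lowest by that measure, at 218 and 215. Nuclear-encoded members shared little sequence, with a median of 1.65% of windows, and only Ndufaf2 passed 50%, at 64.1%. Ndufa13, a complex I subunit, had 0 counts in every cell, and its whole span is overlapped on the same strand by Yjefn3.

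The 9 mt-encoded members summed to 4688 CPM as the mean of the cells, and their highest sum in any cell was 15791 CPM. Among nuclear-encoded members the ATP synthase was the most abundant by sum, at 2841 CPM over 17 genes, led by Atp5a1 at 805 CPM, its alpha subunit. Complex I summed to 1396 CPM over 30 accessory subunits, 863 CPM over 7 catalytic core subunits and 219 CPM over 8 assembly factors. The leading members were Ndufa10 at 129 CPM, Ndufv2 at 151 CPM and Ndufaf7 at 57.8 CPM. Complex II, which also works in the tricarboxylic acid cycle, summed to 698 CPM over 4 genes with Sdha, the flavoprotein, at 320 CPM. Complex III summed to 996 CPM over 9 genes with Uqcrc1 at 287 CPM, and complex IV to 1163 CPM over 13 genes with Cox7a2l at 283 CPM. Ndufa4, at 96.2 CPM, was placed by its symbol and so counts here with complex I and not with complex IV. These sums are not per length and do not compare the amounts of the complexes.

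Most mt-encoded members were found in nearly every cell. An mt-encoded member was found in 66.7% (mt-Nd3) to 99.4% (mt-Atp8) of cells, and a nuclear-encoded member in 2.04% (Cox6b2) to 93.2% (Cox4i1). Over single cells the nuclear-encoded members summed to 486 to 32793 CPM with a median of 7954 and a coefficient of variation of 39.4%. The mt-encoded members summed to 0 to 15791 CPM with a median of 4503 and a coefficient of variation of 33.0%. A single cell, from host A11, had no mt count. Within a host the sums were loosely related, with Spearman correlations across cells of −0.04 to 0.36 (median of 8 hosts 0.24), given as a description because the sums share the cell's total as denominator. The mt-encoded sum followed the mitochondrial ribosomal RNAs, which come from the same genome, with correlations of 0.64 to 0.88. These also share the cell's total as denominator and are a description.

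The mt-encoded share fell with the depth of the cell. Across the cells of a host the Spearman correlation of mt-encoded CPM with total counts was −0.81 to −0.41 (median −0.57), below 0 in all 8 hosts. For nuclear-encoded CPM it was −0.11 to 0.26 (median 0.09). On a log2 scale the slope of summed mt counts on total counts was 0.46 to 1.05 (median 0.62), and that of nuclear-encoded counts 0.83 to 1.59 (median 1.13), where a slope of 1 is a constant share. Cells with a total at or above the median of their host had mt sums lower by 0.18 to 0.59 on the log2 scale than the other cells, and nuclear sums between 0.28 lower and 0.16 higher.

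By member, the median correlation with total counts was −0.60 for mt-Nd1, −0.59 for mt-Atp8, −0.58 for mt-Nd5, −0.48 for mt-Cytb, −0.36 for mt-Co1 and −0.22 for mt-Nd4. It lay between −0.04 and 0.06 for mt-Nd6, mt-Nd3 and mt-Nd2. Among the 88 nuclear-encoded members 6 had a median below 0, the lowest being Cox7a2l at −0.17, and Uqcrc1 was the highest at 0.22. The total is also the denominator of the CPM, so these correlations are a description. Per kb of transcript, mt-Nd1, mt-Cytb, mt-Nd5, mt-Atp8 and mt-Co1 had 436 to 1066 CPM, mt-Nd6 197, mt-Nd4 194, mt-Nd2 188 and mt-Nd3 10.3. Reads of identical position had been removed before counting, and so before the thinning used below. The part of that removal in these relations and in the mt-encoded differences between classes was not tested.

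**Figure D2:**
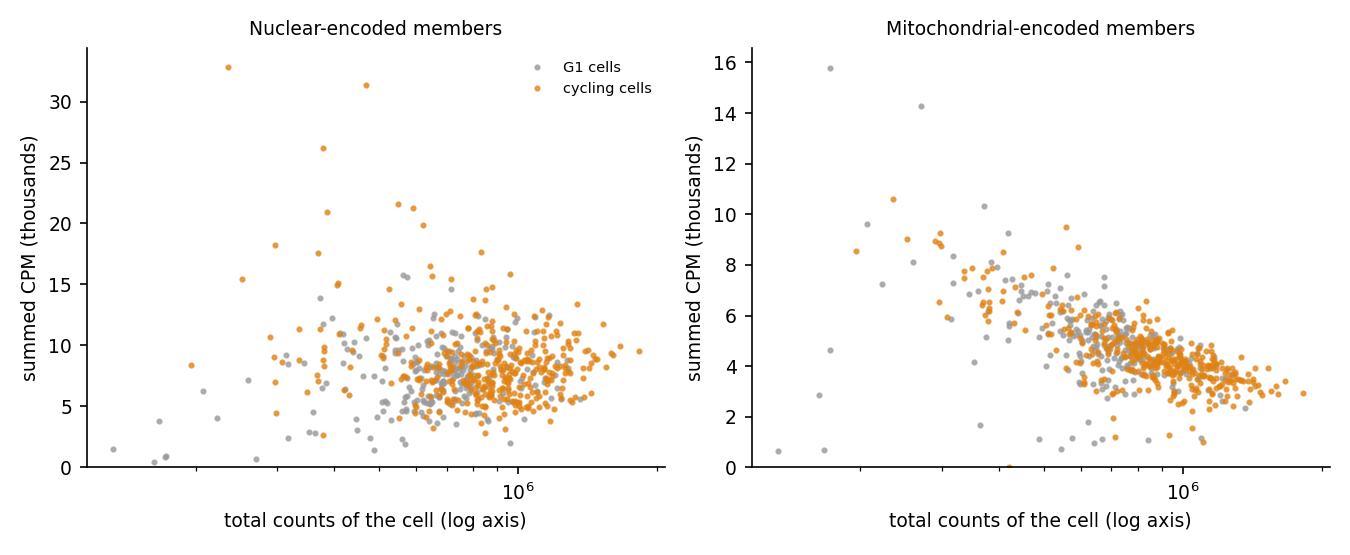
Summed CPM of the nuclear-encoded and of the mt-encoded members in each of the 637 cells against the total counts of the cell (log axis), G1 and cycling cells in separate colors. The mt-encoded sums slope down with depth (median correlation within hosts −0.57), whereas the nuclear-encoded sums do not (0.09).

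To ask how the genomes compare between cycling and G1 cells, the cells of a class were pooled in each host and their counts added up, so that the host is the replicate and each host gives both classes. In such a sum, fewer cells with a transcript and less of it in each cell cannot be told apart. Nuclear-encoded members summed to 6725 to 9177 CPM in G1 (median 8247) and 7205 to 10324 CPM in cycling cells (median 8132). The sum was higher in cycling cells in 7 of 8 hosts, lower in V7, and the ranges overlap. The mean was 8539 ± 1122 CPM (SD, n = 8) in cycling against 7908 ± 879 CPM in G1 cells, a mean log2 ratio of 0.11 within hosts. Mt-encoded members summed to 3875 to 5866 CPM in G1 (median 4943) and 3843 to 5509 CPM in cycling cells (median 4306). Here cycling cells were lower in 7 of 8 hosts and higher in V9, at 4435 ± 573 against 4819 ± 703 CPM, a mean log2 ratio of −0.12.

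The sums moved apart, and the ratio of nuclear-encoded to mt-encoded counts was higher in cycling cells in 8 of 8 hosts. In G1 cells it was 1.25 to 1.90 (median 1.70) and in cycling cells 1.58 to 2.16 (median 1.94). The widest gap was in A7, from 1.44 to 1.87, and the narrowest in V9, from 1.89 to 1.99. The mean was 1.93 ± 0.18 against 1.66 ± 0.22 (SD, n = 8), and the log2 ratio within hosts averaged 0.22 (0.08 to 0.38). The members were chosen with results of these cells known, so no p is given for the sums. By plate the ratio was higher in cycling cells on 13 of 15 plates.

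Cycling cells were also deeper, with a higher median total in 8 of 8 hosts and a mean log2 ratio of 0.28. Among cells at or above the median total of their host, the nuclear-to-mt ratio was higher in cycling cells in 6 of 7 hosts, with a mean log2 ratio of 0.15. Among the shallower cells it was higher in 7 of 8 hosts, at 0.20, but there the nuclear sum moved by 0.21 and the mt sum by 0.01 on average, higher in 4 of 8 hosts and between −0.01 and 0.04 when a host was left out. The lower mt share of cycling cells was seen in the deeper cells, in 6 of 7 hosts, at a mean log2 ratio of −0.09. Those cycling cells still had the higher median total, in 7 of 7 hosts at a mean log2 ratio of 0.18. In the shallower cells the median total was higher in 5 of 8 hosts, at 0.02. Depth was therefore not equal between the classes of the deeper cells, and its part in the mt sums was not tested. The difference between deeper and shallower cells was not tested either. Without the cells in which Myc was detected the nuclear-to-mt ratio was higher in 7 of 8 hosts, at a mean log2 ratio of 0.19.

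**Figure D3:**
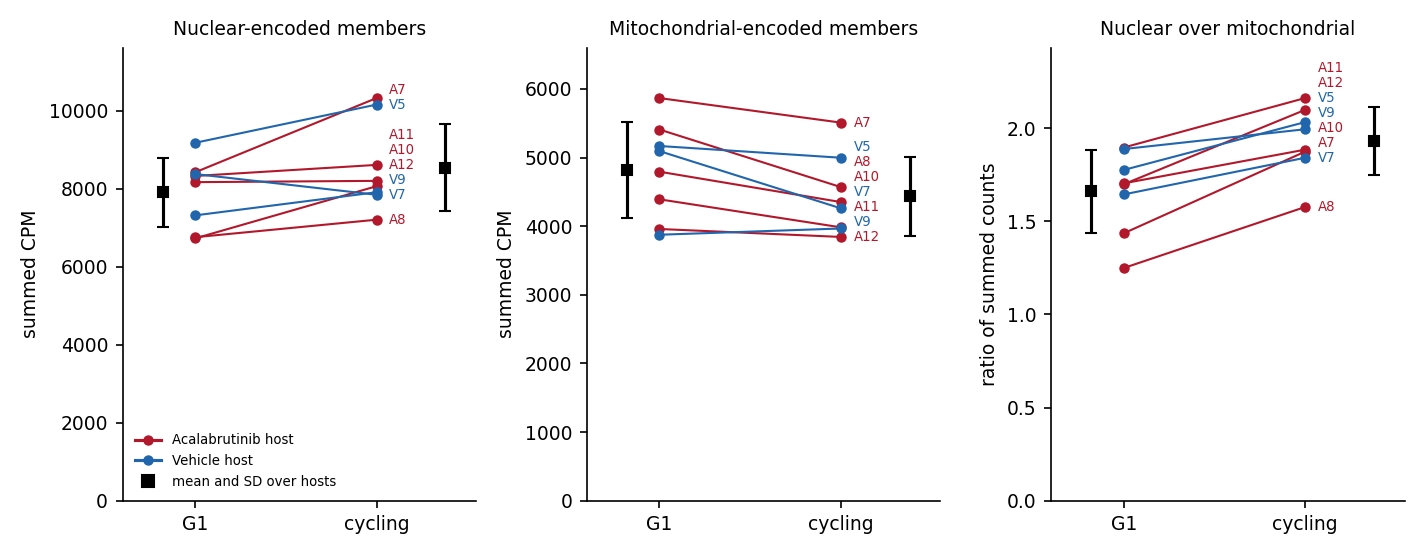
Summed CPM of nuclear-encoded members, summed CPM of mt-encoded members and their ratio in G1 and cycling cells, 1 line per host (5 acalabrutinib, 3 vehicle, labels in the order of the cycling values), axes from 0, with squares and bars for the mean and SD over hosts. The ratio rises in all 8 lines, whereas 1 line goes against the rest in each of the other panels.

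Gene by gene, 1 member passed the test between cycling and G1 cells. That test was edgeR's quasi-likelihood test with the host as a block and Benjamini-Hochberg adjustment over all 12647 genes tested, called at an adjusted p under 0.05. It called 2.51% of all genes higher in cycling cells and 1.08% lower, with a median log2 fold change of 0.15. Of the 86 nuclear-encoded members tested none was called, 62 had a log2 fold change above 0 and their median was 0.20. At an unadjusted p under 0.05 there were 3 higher and 1 lower. Where nothing differs a share of 0.05 of genes passes that limit, so the count is not read as a result. Of the 9 mt-encoded members 1 was called lower and none higher, and their median was −0.14.

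The member called was mt-Nd5, a membrane subunit of complex I and the mt-encoded member with the highest CPM. It had 1169 to 1902 CPM in G1 (median 1521) and 1140 to 1546 CPM in cycling cells (median 1266). The level was lower in cycling cells in 8 of 8 hosts, although the ranges overlap and V9 differed little, at 1162 against 1169 CPM. The fold change was −0.22 on the log2 scale (SE 0.05, edgeR quasi-likelihood, Benjamini-Hochberg adjusted p = 0.0371), at 1302 ± 150 against 1500 ± 240 CPM. Leaving out a host ended the call for every host but V9, with adjusted p from 0.0683 (A12) to 0.104 (V7), and summing cells thinned to equal counts gave an adjusted p of 0.0519. The sign held in all of these fits, at −0.26 to −0.20 without a host.

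The other mt-encoded members did not pass the test. mt-Co1, the catalytic subunit of complex IV, had 585 to 818 CPM in G1 (median 721) and 540 to 767 CPM in cycling cells (median 629). It was the other mt-encoded member lower in all 8 hosts, with a log2 fold change of −0.16 (edgeR adjusted p = 0.264). mt-Cytb, the cytochrome b of complex III, stood at −0.14 with 7 of 8 hosts lower, mt-Nd4 and mt-Nd6 at −0.16, mt-Atp8 at −0.12, mt-Nd3 at −0.10 and mt-Nd1 at −0.08. mt-Nd2 was the exception, at 0.24 with 7 of 8 hosts higher (edgeR adjusted p = 0.427). Over all genes tested 2.01% were lower in every host, against 2 of these 9, and 5.24% were higher in every host, against 3 of the 86 nuclear-encoded members.

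Those 3 nuclear-encoded members were Ndufb11 and Ndufa1, accessory subunits of complex I, and Atp5c1, the gamma subunit of the ATP synthase. Their log2 fold changes were 0.61, 0.52 and 0.16, and edgeR's adjusted p was 0.458 or more for each. The nuclear-encoded members with the smallest p included Uqcrfs1, the Rieske iron-sulfur protein of complex III. It had 87.5 to 195 CPM in G1 (median 144) and 169 to 253 CPM in cycling cells (median 200), higher in 7 of 8 hosts, with a log2 fold change of 0.48 (SE 0.17, edgeR adjusted p = 0.186). Cox7a2l went the other way, from a G1 median of 324 CPM to 249 CPM in cycling cells, lower in 6 of 8 hosts, at −0.35 (edgeR adjusted p = 0.199). Atp5b, the catalytic beta subunit of the ATP synthase, had a median of 569 CPM in G1 and 691 CPM in cycling cells, higher in 7 of 8 hosts, at 0.26 (edgeR adjusted p = 0.267). Cox5a, a complex IV subunit, stood at 0.64 (edgeR adjusted p = 0.316), while Atp5a1 stood at 0.03.

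By complex, the median log2 fold change was 0.15 for the ATP synthase (14 of 17 above 0), 0.22 for complex II (4 of 4), 0.33 for complex III (7 of 9) and 0.19 for complex IV (8 of 11). In complex I it was 0.21 for accessory subunits (20 of 30), −0.07 for the catalytic core (3 of 7) and 1.28 for assembly factors (6 of 8), which are low in counts. Ndufa4 is again counted with complex I by its symbol. None of these groups held a called member, and the medians stand beside 0.15 over all genes.

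DESeq2 on the same sums called 9.33% of genes higher and 4.26% lower in cycling cells. It called 3 nuclear-encoded members higher, Cox7b2, Cox5a and Ndufaf8, with log2 fold changes of 2.47, 0.58 and 1.36, and Cox7a2l lower, at −0.40. It also called 5 mt-encoded members lower, mt-Co1, mt-Atp8, mt-Nd5, mt-Nd6 and mt-Cytb. DESeq2's medians were 0.14 for nuclear-encoded members, −0.20 for mt-encoded members and −0.21 over all genes, so by DESeq2 the mt-encoded median did not lie below that of all genes. Its share of calls over all genes was also larger, so the counts of members are read against it.

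**Figure D4:**
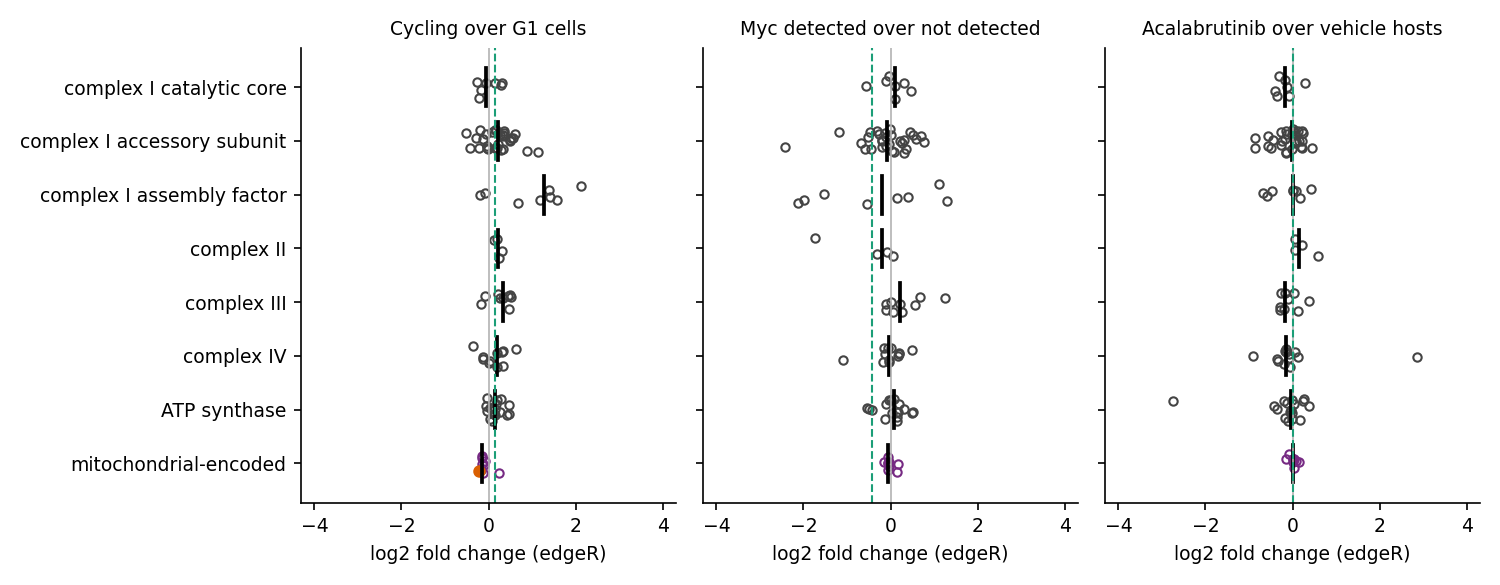
Log2 fold change (edgeR) of every tested member by role, for cycling against G1 cells, Myc detected against not detected, and acalabrutinib against vehicle hosts, 1 point per gene, the dashed line being the median of all genes tested. Of the mt-encoded members only mt-Nd2 lies above 0 in the first panel.

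Genes that make or use the chain were read in the same fit, which called 2.51% of all genes higher and 1.08% lower. Beside those shares, 1 call or none in a list of 7 to 72 genes is not read as a result about the list. The larger mitochondrial ribosomal RNA, mt-Rnr2, was lower in cycling cells in 8 of 8 hosts, at 2605 ± 322 against 2998 ± 388 CPM, a log2 fold change of −0.23 (SE 0.04, edgeR adjusted p = 0.00678), while mt-Rnr1 stood at −0.01. Summed, the mitochondrial ribosomal RNAs had a mean log2 ratio of −0.19 over all cells. That ratio was −0.11 among the deeper cells (higher in 1 of 7 hosts) and −0.05 among the shallower cells (higher in 3 of 8). The part of depth in the mt-Rnr2 call was not tested. Idh3a, a catalytic subunit of the isocitrate dehydrogenase of the tricarboxylic acid cycle, rose by 0.89 (edgeR adjusted p = 0.0193) and was the 1 gene called of 17. Mrpl28, of the large mitochondrial ribosomal subunit, rose by 1.12 (edgeR adjusted p = 0.0339) and was the 1 gene called of 72. None was called among 15 genes of mitochondrial DNA maintenance and transcription, 14 of mitochondrial RNA stability and processing, 27 assembly factors of complexes II to V, 7 of cytochrome c and carriers and 9 regulators of mitochondrial biogenesis. The latter lists had medians of 0.45, 0.20, 0.12, 0.24 and 0.25, beside 0.15 over all genes.

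Marker lists of cell identity were also read in this fit, beside its shares of 2.51% of all genes called higher and 1.08% called lower. Of 12 genes tested from the GC B cell list 4 fell in cycling cells, Cd79b, Cd79a and Cd38 among them. The study counts Cd38 among memory-associated markers, so its fall is not read as the loss of a GC gene. Of 6 light zone genes 2 fell, Cd83 and Cd86. Of 5 dark zone genes 2 rose (Polh, by 2.74, and Gcsam, by 0.77) and Foxp1 fell. Of 4 plasma cell, 1 T cell and 3 macrophage genes tested none was called. Their part in the members' values was not tested.

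S and G2/M cells were also read apart. Against G1, the ratio of nuclear-encoded to mt-encoded counts was higher in S cells in 8 of 8 hosts and in G2/M cells in 7 of 8, with mean log2 ratios of 0.23 and 0.22. V9 was the exception in G2/M, at 1.85 against 1.89. mt-Nd5 was again the 1 member called, at −0.19 in S (edgeR adjusted p = 0.0337) and −0.22 in G2/M (edgeR adjusted p = 0.0121), sharing the G1 cells with the comparison above. Over 12861 genes tested, 2.57% were higher and 0.676% lower in S, and 2.54% were higher and 1.21% lower in G2/M. Of the nuclear-encoded members Uqcrfs1 at 0.75 (edgeR adjusted p = 0.0691) and Sdhb, the iron-sulfur subunit of complex II, at 0.36 (edgeR adjusted p = 0.0888) came nearest to the threshold in G2/M.

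Cycling cells had more nuclear-encoded members detected per cell. The median was 34 in G1 and 47 in cycling cells (47 in S, 49 in G2/M), out of 88. After each cell was thinned to 459128 counts, which left out 32 G1 and 32 cycling cells, the medians were again 34 and 47. The thinned median was higher in cycling cells in 8 of 8 hosts, by 4.5 to 19 genes. All genes detected per thinned cell also rose, from 3218 to 3812. Within hosts the ratio of cycling to G1 was 1.11 to 1.63 for the members (median 1.29) and 1.10 to 1.23 for all genes (median 1.16).

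**Figure D5:**
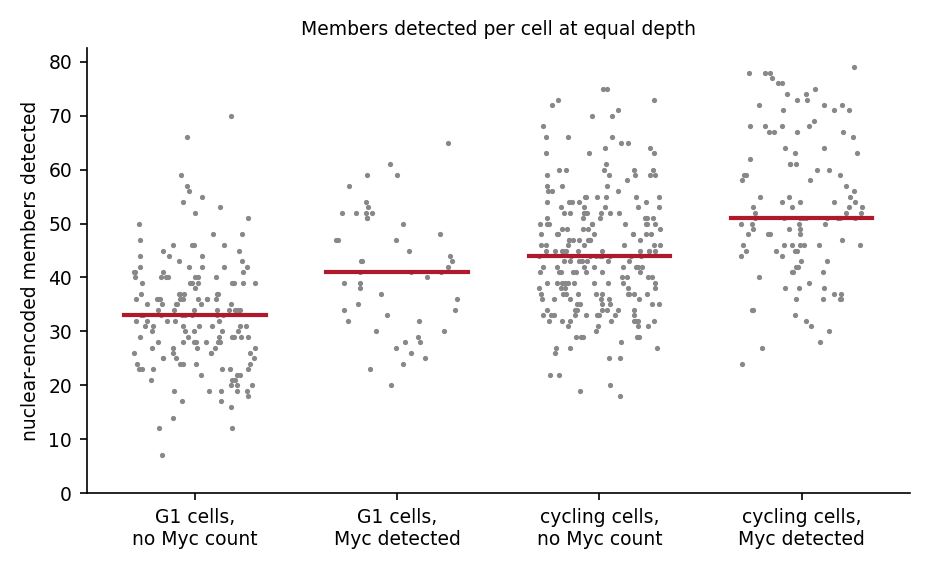
Nuclear-encoded members detected per cell (at least 1 count, of 88) after thinning to 459128 counts, for G1 and cycling cells with and without Myc, points being cells and bars the medians. The medians are 33, 41, 44 and 51 for G1 without Myc, G1 with Myc, cycling without Myc and cycling with Myc.

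Detection of Myc, the transcription factor of positively selected LZ cells, divided the cells in another way, 177 with Myc and 460 without. Sums with Myc rest on 5 cells in A7 and 6 in V7, and on 13 to 50 cells in each of the other hosts. Nuclear-encoded members summed to 7782 to 10918 CPM with Myc (median 8672) and 6615 to 9696 CPM without (median 8143), higher with Myc in 6 of 8 hosts. The 10918 CPM was that of A7. Mt-encoded members summed to 3879 to 5544 CPM with Myc (median 4300) and 3866 to 5692 CPM without (median 4602), lower with Myc in 6 of 8 hosts. The ratio was 1.79 to 2.24 with Myc and 1.31 to 2.02 without, higher with Myc in 7 of 8 hosts, A10 being the exception. The mean was 2.03 ± 0.18 against 1.76 ± 0.22 (SD, n = 8), a mean log2 ratio of 0.21. Cells with Myc were deeper in 8 of 8 hosts, by 0.22 on the log2 scale. Among cells at or above the median total of their host the ratio was higher with Myc in 6 of 6 hosts at 0.21. Among the shallower cells 2 of 4 hosts were higher with Myc, and the log2 ratio had a mean of −0.14 and a median of −0.01. That mean rests on A10, at −0.68 with 6 Myc cells, and was 0.05 without it and −0.23 without V9.

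No member passed the test for Myc detection. edgeR called 0.0393% of 12715 genes higher and 0.0157% lower with Myc, and the median log2 fold change over all genes was −0.42. Of 87 nuclear-encoded members tested 45 had a log2 fold change above 0, with a median of 0.01. An unadjusted p under 0.05 was found for 3 of them, a count that is not read as a result either. The 9 mt-encoded members had a median of −0.05 and none with an unadjusted p under 0.05.

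Atp5b had the smallest p among the members. It had 609 to 873 CPM with Myc (median 725) and 430 to 734 CPM without (median 603). The level was higher with Myc in 8 of 8 hosts, with overlapping ranges, and the log2 fold change was 0.31 (SE 0.09, edgeR adjusted p = 0.366). Ndufaf4, an assembly factor of complex I, had 5.14 to 89.7 CPM with Myc (median 55.2) and 4.99 to 39.0 CPM without (median 21.0). It was higher in 8 of 8 hosts, at 1.30 (edgeR adjusted p = 0.529), although V7 differed little, at 5.14 against 4.99 CPM. Ndufa10 was also higher in 8 of 8 hosts, at 0.46, and Uqcrq, a small subunit of complex III, in 7 of 8, at 1.24 (edgeR adjusted p = 0.476). mt-Co1 was lower in 8 of 8 hosts, at −0.16 (edgeR adjusted p = 0.622). The share of all genes that moved alike with Myc in every host was not computed, so these counts of hosts are a description.

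DESeq2 called 1.5% of genes higher and 8.3% lower with Myc, and among members Ndufaf4 and Uqcrq higher and Ndufb2, an accessory subunit of complex I, lower. Its medians were 0.05 for nuclear-encoded members, −0.01 for mt-encoded members and 0.26 over all genes, so whether the members' medians lay above or below that of all genes depended on the tool. None of the mitochondrial lists held a gene called by edgeR. The nearest regulator was Pprc1, a coactivator of nuclear genes for mitochondrial proteins, at 1.81 and higher in 8 of 8 hosts (edgeR adjusted p = 0.356).

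Myc detection and cycling overlap, so each was read within the other. All sums of at least 5 cells per host and class entered a joint edgeR fit of the 4 classes, with the host as block. Within G1 cells edgeR called 0.0307% of 16312 genes higher and 0.116% lower with Myc. Within cycling cells it called 0.00613% higher and 0.0% lower, and for the difference of the Myc effect between the classes 0.0184% and 0.0%. No member was called in any of these. For the difference 3 of 97 members had an unadjusted p under 0.05, again not read as a result. The lowest edgeR adjusted p was 0.686, for Atp5j2, an ATP synthase subunit. In hosts with enough cells of both kinds, the ratio of nuclear-encoded to mt-encoded counts was also compared. It was higher with Myc in 3 of 4 hosts in G1 and in 5 of 5 in cycling cells, with mean log2 ratios of 0.16 and 0.17. The G1 mean spans −0.45 in A10 to 0.64 in A8, and it was 0.36 without A10 and −0.01 without A8.

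Detected members followed the same order as in the plot of members per cell. Unthinned medians were 39 without Myc and 50 with it. After thinning they were again 39 and 50, higher with Myc in 6 of 7 hosts, by 0 to 14.5 genes. The ratio within hosts had a median of 1.15 for the members and 1.06 for all genes.

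Between treatments the host is the replicate, 5 acalabrutinib against 3 vehicle, and both genotypes are in each sum. The ratio of nuclear-encoded to mt-encoded counts was 1.82 in A10, 2.08 in A11, 1.97 in A12, 1.67 in A7 and 1.39 in A8. It was 1.95 in V5, 1.75 in V7 and 1.97 in V9. The vehicle hosts lie inside the range of the acalabrutinib hosts. The means were 1.79 ± 0.27 (n = 5) and 1.89 ± 0.12 (n = 3). Nuclear-encoded members summed to 8157 ± 933 against 8556 ± 1139 CPM and mt-encoded members to 4629 ± 723 against 4529 ± 557 CPM, differences smaller than the SDs.

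No gene was called between treatments by edgeR (0.0% of 18016 in either direction, with 616 at an unadjusted p under 0.05), also within G1 cells (0.0% of 13406, with 567). DESeq2 called 1.86% higher and 0.525% lower with acalabrutinib, none of them a member. The median log2 fold change was −0.08 for nuclear-encoded members (35 of 88 above 0) and 0.02 for mt-encoded members (7 of 9), beside 0.02 over all genes. Without V5 the nuclear-encoded median was 0.20. At an unadjusted p under 0.05 there were 3 nuclear-encoded members, each lower.

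Of the 97 members, 1 had every acalabrutinib host above every vehicle host (1.03% of all genes) and 2 had every acalabrutinib host below (1.15%). Atp5l, a membrane subunit of the ATP synthase, had 0.311 to 10.5 CPM against 17.8 to 49.6 CPM, with groups that do not overlap. Ndufc2, an accessory subunit of complex I, had 37.9 to 63.0 CPM against 32.8 to 37.0 CPM. None of the 3 passed edgeR's test, and shares of 1 and 2 in 97 are near the background.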

How the data were processed

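LZ GC B cells were sorted from popliteal lymph nodes into single wells and sequenced by SMART-seq2. Per the labels and the study's methods, the authors mapped reads with STARsolo 2.7.10a to GRCm39, assigned reads to a gene when they fell on its exons or its introns, removed reads of identical position (there are no molecular identifiers) and deposited raw counts. The labels' notes also name GRCm38. Amplified copies at other positions still count more than once.

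Cells were assigned to hosts by name. Phases came from Seurat 5.3.0 scores of 43 S and 54 G2/M genes (S or G2/M being cycling), with 30 cells within 0.05 of a limit. CPM was computed from these counts, and counts were summed per host and class of at least 5 cells. edgeR 4.0.16 (quasi-likelihood, TMM, filterByExpr, host as block where both classes come from a host) was used on R 4.3.3, with DESeq2 1.42.0 as an alternative. Only the edgeR fit of cycling against G1 cells was run on simulated counts, and its outcome is not used here. The host pairs the classes because both come from the same animal. An SE given with an edgeR fold change is the absolute fold change divided by the square root of the test's F statistic. Thinning drew 459128 counts per cell, leaving out 64 shallower cells. Further alternatives were library sizes only, no filter, scaling without mt genes, equal numbers of cells, a plate block, no replicate block, other limits for cycling and Myc, and leaving out each host. Sequence sharing used Python 3.11.15 and 50-base windows.

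Members and lists were chosen with earlier results of these data known. Named genes were every mt-encoded member, the most abundant member of each role, the nuclear-encoded members with the smallest p and the 2 genes of each list with the smallest p. Members called by DESeq2, those moving alike in every host or not overlapping between treatments, and Cox4i1, Cox6b2, Ndufaf2 and Ndufa13 were named after their values were seen. Hosts belonged to 2 independent experiments, and which host to which is not given in the sources used here. Some genes that the rule names are not reported here.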

Additional observations from a re-analysis of the deposited data

Results flagged for a closer look

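Host values of the named members were examined for a host far from the others of its group, 68 groups in all, and 6 had one. Chance gives such a host in about 5% of groups. mt-Nd3 was 6.50 CPM in A7 against 2.39 to 3.43 CPM in the other acalabrutinib hosts. Atp5a1 was 596 CPM in A8 against 806 to 877 CPM in the other acalabrutinib hosts. The log2 ratio of mt-Co1 in cycling over G1 cells was −0.38 in V7 against −0.17 to −0.01 in the other 7 hosts. That of Uqcrc1 was 1.35 in A10 against −0.16 to 0.44. With Myc over without, the log2 ratio of mt-Nd3 was −1.44 in V7 against −0.16 to 0.77, and that of Atp5a1 was 0.72 in A8 against −0.15 to 0.22.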

How the results depend on the processing

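The number of mt-encoded members called lower between cycling and G1 cells, 1 in the fit reported (mt-Nd5), was 5 by DESeq2, 0 with library sizes only, 0 without a filter on low counts, 0 with thinned cells, 0 with the plate as block, 0 with cells divided at the median of the cycle genes and 0 to 1 when a host was left out. Without the replicate block, which ignores that both classes come from the same animals, it was 0, with an adjusted p of 0.500 for mt-Nd5 and 0.453 for mt-Rnr2. The log2 fold change of mt-Nd5 stayed between −0.28 and −0.18 over 17 alternatives, but its call was kept in only 4 of 17. Those were DESeq2, scaling without mt genes, equal numbers of cells and leaving out V9. mt-Rnr2 kept its call in 16 of 17, although none of the alternatives divided the cells by depth. The causes were not tested.

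DESeq2 called 3 nuclear-encoded members higher and 1 lower between cycling and G1 cells, and 2 higher and 1 lower with Myc, where edgeR called 0. The median of mt-encoded members with Myc was −0.12 without a filter on low counts, against −0.05. Without V5 the nuclear-encoded median between treatments was 0.20, against −0.08, and it was −0.25 to 0.20 over the hosts left out. The mean log2 ratio, with Myc over without, of the nuclear-to-mt ratio was −0.14 in the shallower cells, an alternative chosen after seeing the data. It was 0.21 over all cells, and 0.05 in the shallower cells without A10. Left-out hosts gave mean log2 ratios of the nuclear-to-mt ratio of 0.20 to 0.25 between cycling and G1 cells and 0.17 to 0.24 with Myc. The median of all genes between cycling and G1 cells was 0.15 in the fit reported, −0.21 by DESeq2, 0.38 without a filter, −0.07 without the replicate block and 0.25 with the plate as block. With Myc it was −0.42, 0.26, −0.74, −0.02 and −0.56.

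Single nuclear-encoded members were found in as few as 2.04% of cells, so folds of the low ones are imprecise. The comparison of treatments rests on 5 against 3 hosts.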
